A study of Mus musculus with 9 samples.

Results

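The mitosis and cell cycle driver genes described here are 49 genes whose products carry a cell from G1 phase into S phase and then through mitosis and cytokinesis. They are part of 34650 gene names on the array, and were matched to it by name, with 67 of 55681 non-control probes. A probe well above the local background on at least 1 of 9 arrays was kept, which left 60 probes and 44 genes to test out of 24101 genes. The other 5 genes, Ccne2, Ncapg, Ttk, Aurkb and Kif15, have 1 probe each, and none of these probes passed on a single array.

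RNA was measured on 9 one-color arrays of primary mouse microglia, 3 arrays per group from 3 independent experiments. The cultures came from the brains of fms-EGFP pups at postnatal day 0 to 1, in which the fms (Csf1r) promoter drives EGFP in microglia and other myeloid cells. In all groups 2 brains were pooled per flask and the medium held GM-CSF, a growth factor that promotes microglial proliferation. Control microglia were naive cells collected at 0 h without apoptotic cells. Ph3h and Ph24h microglia received apoptotic cells of the human neuroblastoma line SH-SY5Y, killed with staurosporine (3 µM, 4 h), for 3 h and 24 h. No culture was kept unfed for 3 h or 24 h, so feeding and time in culture cannot be told apart.

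In the cell cycle, D and E type cyclins and E2F factors open S phase, and cyclins A and B with the kinase CDK1 drive entry into mitosis. Condensins then compact the chromosomes, kinetochores attach them to the spindle, and a checkpoint holds the cell until all are attached. CDC20 and the anaphase promoting complex end that hold by marking securin and cyclin B for destruction, after which the central spindle and a contractile ring divide the cell. Most mitotic transcripts accumulate in G2 phase, which is why they mark cycling cells in a tissue or culture, microglia included. In bulk RNA, fewer cycling cells and less RNA per cycling cell cannot be told apart.

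Levels are given as the log2 level, the log2 intensity of the brightest kept probe of a gene minus the 75th percentile of the same array, so that 0 is the level of that percentile. The percentile itself was 355.5 to 472.5 intensity units on control arrays, 184.9 to 211.3 on Ph3h arrays and 156.2 to 161.3 on Ph24h arrays. Of the 44 genes, 43 to 44 were well above background on the control arrays, 42 to 43 on the Ph3h arrays and 38 to 40 on the Ph24h arrays. All 14 microglial markers were well above background on every control and Ph3h array, and 13 on every Ph24h array. The summed level of the 14, as intensity over the percentile, lay between 1698 and 1788 in control, between 2184 and 2372 in Ph3h and between 1481 and 1583 in Ph24h microglia. Of 24 listed markers of the fed SH-SY5Y cells, 20 were measured. Their summed level was 4.27 to 4.98, 1518 to 1649 and 2290 to 2641 in the same order. Of these 20, 7 were well above background on every control array, 16 on every Ph3h array and 17 on every Ph24h array. On no control array were 10 of them well above background (Chga, Scg2, Nefl and Prph among them). Vgf had the highest mean log2 level of the 20 in Ph3h (10.40) and Ph24h (11.13) microglia, against -2.49 in control. The paper reports Vgf among the most expressed genes in its real-time qPCR of naive and phagocytic microglia. That sum therefore cannot be read as fed-cell RNA alone. On every control array, 8 of 9 measured oligodendrocyte lineage and 5 of 8 astrocyte markers were well above background. So were 4 of 6 fibroblast and mural cell and 3 of 4 endothelial markers. Summed control levels were 266.1 to 326 for the oligodendrocyte lineage and 6.58 to 7.78 for astrocytes. They were 2.12 to 3.98 for fibroblast and mural cells and 8.17 to 11.3 for endothelial cells. The part of other cell types was not tested. The part of RNA or sequence matches from the fed cells in the results below was not tested.

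Against control, more of the 44 genes rose than fell at 3 h, and most fell at 24 h. At 3 h, 23 rose and 3 fell, with 18 not past the threshold (limma, Benjamini-Hochberg adjusted over all 24101 genes, adjusted p below 0.05). The background was wide: 27.9% of all genes tested were higher and 25.9% lower at 3 h. At 24 h, 6 rose, 33 fell and 5 did not pass, beside 29.9% higher and 33.2% lower of all genes tested. The comparison of Ph24h with Ph3h microglia gave 2 higher, 32 lower and 10 that did not pass, beside a background of 20.4% and 24.0%.

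The median log2 difference of the 44 genes was 0.29 at 3 h against 0.07 over all genes tested, and -0.89 at 24 h against 0.01. Between Ph24h and Ph3h it was -1.13 against 0.04. With genes that were dim at 24 h set to the bound described below, the medians at 24 h became -0.81 against control and -1.08 against Ph3h. Another scaling, which centers each array on its median, moves every log2 difference by -0.24 at 3 h and -0.51 at 24 h, so that 15 rose and 6 fell at 3 h, while at 24 h 4 rose and 36 fell. Over all genes tested this scaling changed the split from 6722 higher and 6254 lower to 4323 and 8514 at 3 h, and from 7210 and 7990 to 3842 and 12260 at 24 h.

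**Figure D1:**
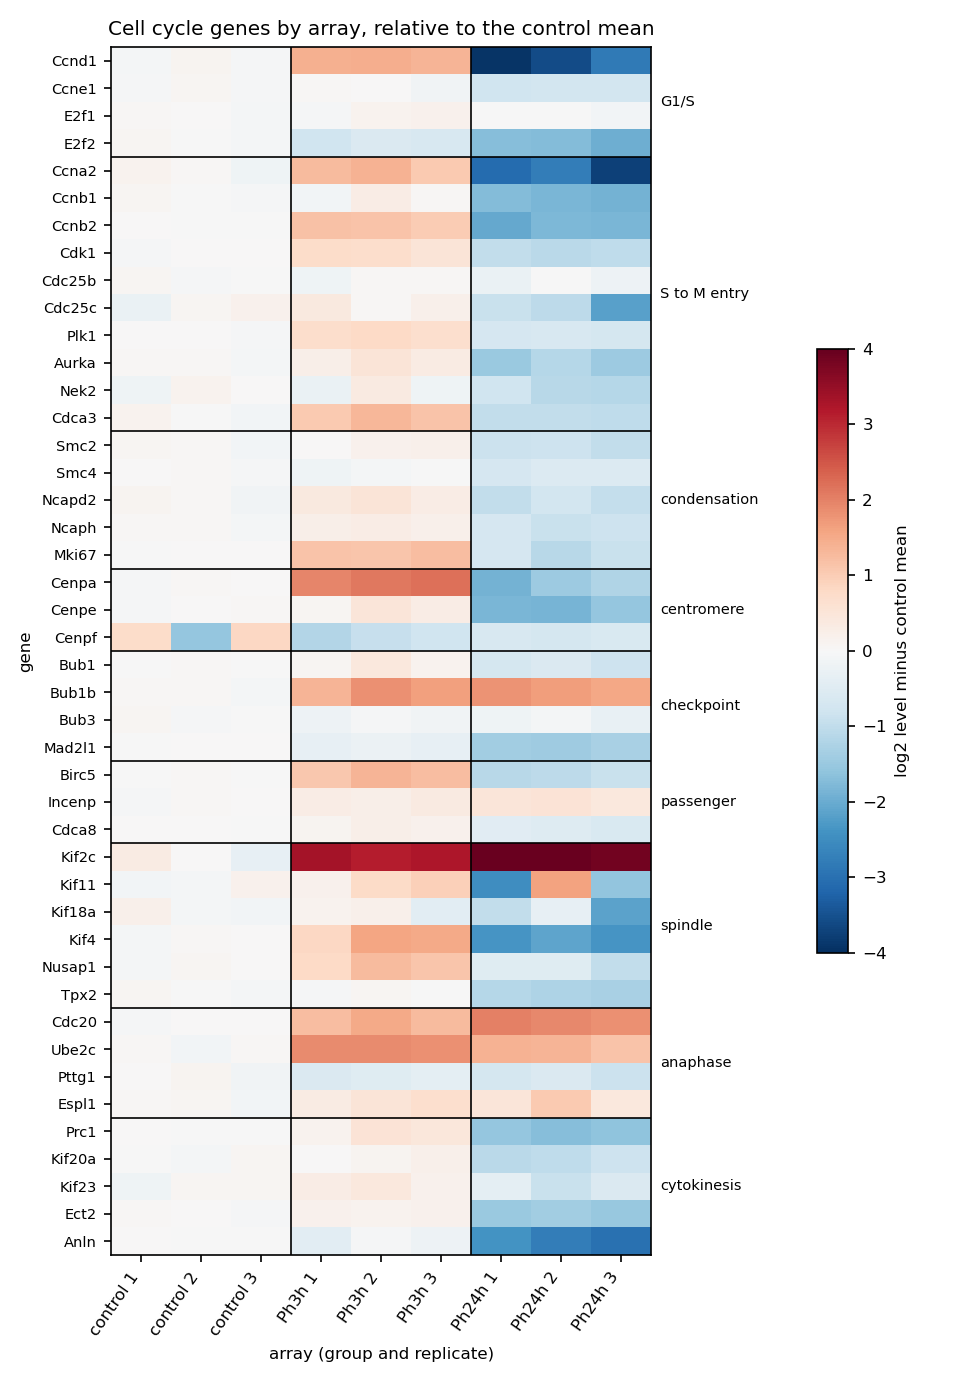
Heat map of the 44 measured genes (rows, ordered by role) on the 9 arrays (columns). Color is the log2 level minus the mean of the 3 control arrays. The 3 Ph24h columns are below control in most rows, with Bub1b, Incenp, Kif2c, Cdc20, Ube2c and Espl1 as the rows that were called higher.

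The promoters of 4 of these genes are shown because they hold many matches to sequence elements that are common before mitotic genes. Of the 49 genes, 40 have a promoter in the RefSeq table (GRCm38.p6), each 300 bases long, with 250 before and 50 after the start of the gene. The sequences run 5′ to 3′ on the strand of the gene, and capitals mark matches on either strand to TTTGAA, the core of the cell cycle homology region, or to CCAAT, the CCAAT box. On the opposite strand the former reads TTCAAA and the latter reads ATTGG. They lie at chr2:164769679-164769978 on the plus strand for Ube2c, and on the minus strand at chr9:70421505-70421804 for Ccnb2, chr10:69352863-69353162 for Cdk1 and chr7:135716330-135716629 for Mki67.
Ube2c: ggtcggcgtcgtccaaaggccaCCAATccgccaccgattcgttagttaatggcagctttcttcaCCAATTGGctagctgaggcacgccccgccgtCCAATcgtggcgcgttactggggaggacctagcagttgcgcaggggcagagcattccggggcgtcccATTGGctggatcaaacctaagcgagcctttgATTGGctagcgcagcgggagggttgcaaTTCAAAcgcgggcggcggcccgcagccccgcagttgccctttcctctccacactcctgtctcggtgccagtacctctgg
Ccnb2: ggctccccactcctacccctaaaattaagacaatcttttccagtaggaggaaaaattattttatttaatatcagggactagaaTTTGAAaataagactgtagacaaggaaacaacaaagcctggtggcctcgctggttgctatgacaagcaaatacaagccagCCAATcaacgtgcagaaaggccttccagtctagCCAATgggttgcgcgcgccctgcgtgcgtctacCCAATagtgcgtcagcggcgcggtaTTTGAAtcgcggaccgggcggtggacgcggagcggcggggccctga
Cdk1: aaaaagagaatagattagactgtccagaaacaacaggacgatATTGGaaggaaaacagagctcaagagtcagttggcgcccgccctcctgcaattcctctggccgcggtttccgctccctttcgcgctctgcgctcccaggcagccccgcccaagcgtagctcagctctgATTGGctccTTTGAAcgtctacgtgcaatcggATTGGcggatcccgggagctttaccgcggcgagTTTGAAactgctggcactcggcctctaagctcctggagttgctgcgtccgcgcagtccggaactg
Mki67: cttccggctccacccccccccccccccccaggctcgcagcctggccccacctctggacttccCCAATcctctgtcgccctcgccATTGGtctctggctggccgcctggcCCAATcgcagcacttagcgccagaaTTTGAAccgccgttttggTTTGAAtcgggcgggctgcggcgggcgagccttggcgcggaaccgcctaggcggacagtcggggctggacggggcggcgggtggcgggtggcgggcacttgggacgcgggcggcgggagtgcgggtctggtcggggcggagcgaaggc
Ube2c had 7 matches, the most among the genes with values on every array below, and the other 3 had 5 each. Cdca8 also had 5, and the tie was settled, after values were seen, for genes with the larger difference at 24 h.

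TTTGAA or TTCAAA was found for 27 of these 40 genes (67.5%), beside 20.2% of 27025 genes with a promoter. CCAAT or ATTGG was found in 29 of 40 (72.5%), beside 41.1% of all. GGCGGGAA or TTCCCGCC, an E2F type element, was found in 0 of 40, beside 2.52% of all. Both of the first 2 elements were found for 24 of 40 genes, while 9.00% of all held 2 or more of the 3 kinds. Outside chromosome 18, where overlaps were looked for, matches overlapped each other in 2 promoters, as where CCAAT runs into ATTGG in Ube2c. The median GC content was 59.7% in the 40 promoters and 52.7% in all.

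TTTGAA or TTCAAA was found for 16 of the 27 genes with a promoter that fell at 24 h, for 8 of 10 measured genes that were not called lower, and for all 3 that were not measured. For CCAAT or ATTGG these were 19 of 27, 8 of 10 and 2 of 3. Ube2c rose at 24 h while Ccnb2, Cdk1 and Mki67 fell. A match is a description of the letters and was not tested as a binding site.

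In G1 phase and entry into S phase, 4 of 5 genes were measured, of which 1 rose and 1 fell at 3 h, and 3 of 4 fell at 24 h. Ccnd1, the cyclin D1 that couples growth factor signals to G1 progression, had log2 levels of 3.15, 3.33 and 3.16 on control arrays, 4.64, 4.68 and 4.58 on Ph3h arrays and -0.71, -0.37 and 0.37 on Ph24h arrays. The 3 groups did not overlap, with Ph3h highest and Ph24h lowest. Its log2 difference from control was 1.42 ± 0.24 (SE, n = 3 per group) at 3 h (limma adjusted p = 0.002) and -3.45 ± 0.24 at 24 h (limma adjusted p = 1.72e-05), a 10.9-fold lower level.

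Ccne1, the cyclin E1 that partners CDK2 at the start of S phase, had log2 levels of 2.43, 2.57 and 2.44 in control, 2.53, 2.51 and 2.33 in Ph3h and 1.70, 1.76 and 1.76 in Ph24h microglia. Control and Ph3h overlapped, and Ph24h lay below both. The log2 difference was -0.03 ± 0.07 at 3 h (limma adjusted p = 0.784) and -0.75 ± 0.07 at 24 h (limma adjusted p = 8.92e-05).

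E2f1 and E2f2 encode activator E2F factors, which turn on S phase genes. E2f2 had log2 levels of 1.34, 1.25 and 1.19 in control, 0.45, 0.67 and 0.63 in Ph3h and -0.46, -0.47 and -0.71 in Ph24h microglia, so the 3 groups descended without overlap. It fell by 0.67 on the log2 scale at 3 h (limma adjusted p = 0.000721) and by 1.80 at 24 h (limma adjusted p = 4.14e-06). E2f1 lay at 2.90, 2.88 and 2.78 in control, 2.82, 3.01 and 3.04 in Ph3h and 2.83, 2.82 and 2.75 in Ph24h microglia, and the groups overlapped. Its log2 difference was 0.10 ± 0.07 at 3 h and -0.05 ± 0.07 at 24 h, neither past the threshold (limma adjusted p = 0.285 and 0.572).

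From S to G2 phase and entry into mitosis, all 10 genes were measured, of which 6 rose at 3 h and 9 fell at 24 h. Ccna2, the cyclin A2 of S and G2 phase, had log2 levels of -0.70, -0.82 and -1.04 in control, 0.42, 0.54 and 0.21 in Ph3h and -3.94, -3.63 and -4.59 in Ph24h microglia. The groups did not overlap, and at 24 h it was well above background on 1 of 3 arrays. Its log2 difference was 1.24 ± 0.24 at 3 h (limma adjusted p = 0.00326) and -3.20 ± 0.24 at 24 h (limma adjusted p = 2.11e-05).

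Ccnb2, a mitotic cyclin B, had log2 levels of 1.34, 1.33 and 1.33 in control, 2.51, 2.48 and 2.36 in Ph3h and -0.72, -0.47 and -0.49 in Ph24h microglia. Every Ph3h array was above and every Ph24h array below the control arrays, with log2 differences of 1.12 ± 0.08 (limma adjusted p = 2.59e-05) and -1.89 ± 0.08 (limma adjusted p = 1.54e-06). Cdk1, the catalytic partner of these cyclins, followed with 0.67, 0.75 and 0.75 in control, 1.46, 1.43 and 1.25 in Ph3h and -0.28, -0.35 and -0.28 in Ph24h microglia. Its log2 difference was 0.66 ± 0.07 at 3 h (limma adjusted p = 0.000201) and -1.03 ± 0.07 at 24 h (limma adjusted p = 1.62e-05).

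Ccnb1, the main mitotic cyclin B, had log2 levels of 1.53, 1.44 and 1.43 in control, 1.36, 1.75 and 1.52 in Ph3h and -0.26, -0.37 and -0.42 in Ph24h microglia. Control and Ph3h overlapped, with a log2 difference of 0.08 ± 0.10 (limma adjusted p = 0.554), while its other 2 probes gave 0.61 and 0.58 and were called higher at 3 h. At 24 h the difference was -1.81 ± 0.10 (limma adjusted p = 6.31e-06).

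The other 6 genes of this role were kinases, phosphatases and an adaptor of mitotic entry. Cdca3, a ubiquitin ligase component that promotes mitotic entry, rose at 3 h with a log2 difference of 1.17 and fell at 24 h with -0.99. Plk1 and Aurka, kinases of centrosome and spindle, gave 0.73 and 0.35 at 3 h, both higher, and -0.68 and -1.35 at 24 h, both lower. The 3 h call of Aurka was lost without Ph3h replicate 2 (0.28) or 3 (0.36) or any 1 control array (0.31 to 0.37). The centrosomal kinase Nek2 fell at 24 h (-1.02), and the phosphatase Cdc25b passed at neither time (-0.03 at 3 h and -0.16 at 24 h). Cdc25c, which activates CDK1, fell at 24 h but was not well above background on any Ph24h array. For such a gene the dim group is set, on each array, at no less than the lowest signal well above background, and Cdc25c was at least 1.04-fold lower by that bound, which leaves its size unmeasured (limma adjusted p = 0.00773).

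**Figure D2:**
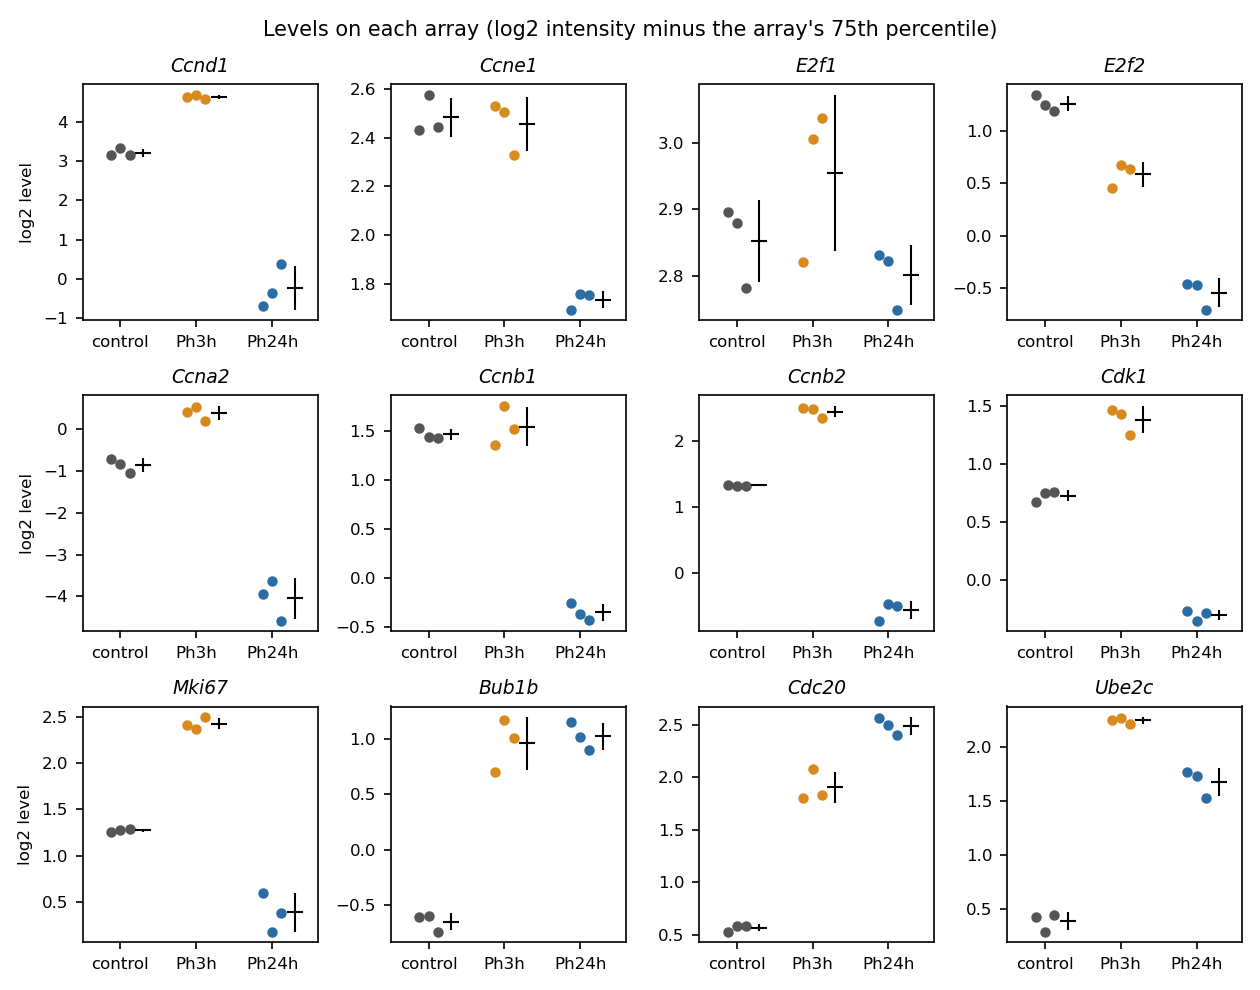
Log2 level (y axis, relative to the 75th percentile of the array) of 12 genes on each of 9 arrays, in control, Ph3h and Ph24h microglia. Points are arrays, dashes the mean of 3 arrays with bars of 1 SD. Ccnd1, Ccna2, Ccnb2, Cdk1 and Mki67 are highest at 3 h and lowest at 24 h, and Bub1b, Cdc20 and Ube2c are above control at both times.

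Among genes of chromosome condensation and the chromosome surface, 5 of 6 were measured, of which 3 rose at 3 h and all 5 fell at 24 h. Mki67, whose product Ki-67 coats mitotic chromosomes and is the usual stain for dividing cells, had log2 levels of 1.26, 1.28 and 1.29 in control, 2.41, 2.37 and 2.50 in Ph3h and 0.60, 0.18 and 0.38 in Ph24h microglia. Again the groups did not overlap, with log2 differences of 1.15 ± 0.10 at 3 h (limma adjusted p = 7.4e-05) and -0.89 ± 0.10 at 24 h (limma adjusted p = 0.000206).

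Smc2, an ATPase core of condensin, had log2 levels of 1.45, 1.41 and 1.28 in control, 1.39, 1.56 and 1.57 in Ph3h and 0.51, 0.56 and 0.38 in Ph24h microglia. It overlapped with control at 3 h (0.13 ± 0.08, limma adjusted p = 0.229) and fell by 0.90 on the log2 scale at 24 h (limma adjusted p = 5.75e-05). Ncapd2, a condensin I subunit, lay at 1.14, 1.09 and 0.89 in control, 1.41, 1.55 and 1.34 in Ph3h and 0.05, 0.31 and 0.08 in Ph24h microglia, without overlap. It gave 0.40 ± 0.11 at 3 h (limma adjusted p = 0.0151), a call that was lost without Ph3h replicate 2 (0.34), and -0.89 ± 0.11 at 24 h (limma adjusted p = 0.000228). The condensin subunits Ncaph and Smc4 fell at 24 h, by 0.80 and 0.59 on the log2 scale. At 3 h Ncaph was called higher at 0.24, which became -0.0050 with median scaling and was lost without any 1 control or Ph3h array (0.20 to 0.26), and Smc4 did not pass at -0.08.

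At the centromere and kinetochore, all 3 genes were measured, with 1 higher at 3 h and 2 lower at 24 h. Cenpa, the histone H3 variant that marks centromeres, had log2 levels of -0.59, -0.49 and -0.53 in control, 1.43, 1.56 and 1.66 in Ph3h and -2.42, -1.99 and -1.75 in Ph24h microglia. This was a log2 difference of 2.09 ± 0.16 at 3 h (limma adjusted p = 3.3e-05) and -1.52 ± 0.16 at 24 h (limma adjusted p = 0.000121). Cenpe, a kinetochore motor, lay at 1.68, 1.74 and 1.76 in control, 1.81, 2.21 and 2.02 in Ph3h and -0.09, -0.13 and 0.19 in Ph24h microglia. Its 3 h arrays were all above control, but the difference of 0.29 ± 0.12 did not pass (limma adjusted p = 0.0813) unless Ph3h replicate 1 was left out (0.39), and at 24 h it fell by 1.74 (limma adjusted p = 1.65e-05). Cenpf, an outer kinetochore protein, was well above background on 1 control array only, and no fold is given. Without control replicate 2 it was called lower at both times, still below background in the fed groups.

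In the spindle assembly checkpoint, 4 of 5 genes were measured, of which 1 rose and 1 fell at 3 h, while at 24 h 1 rose and 2 fell. Bub1b encodes BUBR1, a checkpoint component that inhibits CDC20. Its log2 levels were -0.60, -0.60 and -0.74 in control, 0.70, 1.17 and 1.01 in Ph3h and 1.15, 1.02 and 0.90 in Ph24h microglia, so that both fed groups lay above control and overlapped each other. The log2 difference was 1.60 ± 0.13 at 3 h (limma adjusted p = 3.89e-05) and 1.67 ± 0.13 at 24 h (limma adjusted p = 2.38e-05).

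Mad2l1, the MAD2 protein that acts with BUBR1 against CDC20, moved the other way. It had log2 levels of 2.45, 2.47 and 2.48 in control, 2.13, 2.23 and 2.15 in Ph3h and 1.07, 1.05 and 1.16 in Ph24h microglia, with no overlap between the groups. It fell by 0.30 at 3 h (limma adjusted p = 0.00265) and by 1.37 at 24 h (limma adjusted p = 1.06e-06) on the log2 scale, and all 3 of its probes were lower at 24 h. The mean over its probes gave 0.02 at 3 h. The checkpoint kinase Bub1 fell by 0.70 at 24 h and gave 0.21 at 3 h without passing, and Bub3, its partner, passed at neither time (-0.12 and -0.17).

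Of the chromosomal passenger complex, which corrects faulty attachments and later guides cytokinesis, 3 of 4 genes were measured, and all 3 rose at 3 h. At 24 h, 1 rose and 2 fell. Birc5, the subunit survivin, had log2 levels of 2.68, 2.73 and 2.68 in control, 3.77, 4.05 and 3.92 in Ph3h and 1.60, 1.67 and 1.80 in Ph24h microglia, a difference of 1.21 ± 0.09 at 3 h (limma adjusted p = 2.24e-05) and -1.01 ± 0.09 at 24 h (limma adjusted p = 4.05e-05). Cdca8, the subunit borealin, lay at 2.89, 2.90 and 2.87 in control, 3.00, 3.11 and 3.05 in Ph3h and 2.43, 2.37 and 2.28 in Ph24h microglia. Its rise of 0.17 ± 0.06 at 3 h was narrow (limma adjusted p = 0.0459) and became -0.08 with median scaling. It was lost without Ph3h replicate 2 or 3, Ph24h replicate 2 or any 1 control array (0.14 to 0.18), while Cdca8 fell by 0.53 at 24 h (limma adjusted p = 0.000172). The dimmer probe of Cdca8 was called higher at 3 h (0.51 ± 0.11, limma adjusted p = 0.00622 over probes). At 24 h that probe did not pass (-0.28 ± 0.11, limma adjusted p = 0.0606 over probes).

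Incenp, the scaffold of the complex, was called higher at 3 h and at 24 h. It is given in full, as is Espl1 below, because it was 1 of the 6 genes that rose at 24 h, a choice made after its values were seen. Its log2 levels were 5.02, 5.12 and 5.11 in control, 5.39, 5.30 and 5.46 in Ph3h and 5.56, 5.62 and 5.51 in Ph24h microglia. The log2 difference was 0.30 ± 0.06 at 3 h (limma adjusted p = 0.00545) and 0.48 ± 0.06 at 24 h (limma adjusted p = 0.000401). With median scaling these became 0.06 and -0.02, and neither passed (limma adjusted p = 0.622 and 0.815). The 3 h call was also lost with normexp (0.18) and on slide 1 alone (0.28). Both of its probes were called higher at both times.

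For the spindle and its motors, 6 of 7 genes were measured, of which 3 rose at 3 h, while at 24 h 1 rose and 4 fell. Kif2c, a kinesin that takes microtubules apart at their ends to free faulty attachments, had log2 levels of -3.11, -3.40 and -3.75 in control, -0.09, -0.27 and -0.19 in Ph3h and 0.53, 0.54 and 0.44 in Ph24h microglia. The groups ascended without overlap, by 3.24 ± 0.15 at 3 h (limma adjusted p = 3.2e-06) and 3.92 ± 0.15 at 24 h (limma adjusted p = 9.69e-07), which was the largest difference among the 44 genes at either time. Its other probe did not give this, as described below.

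Tpx2, which activates Aurora A on the spindle, had log2 levels of 0.56, 0.45 and 0.40 in control, 0.42, 0.56 and 0.46 in Ph3h and -0.67, -0.78 and -0.84 in Ph24h microglia. It overlapped with control at 3 h (0.01 ± 0.07, limma adjusted p = 0.922) and fell by 1.23 at 24 h (limma adjusted p = 6.92e-06). Nusap1, which bundles spindle microtubules, rose by 1.06 at 3 h and fell by 0.65 at 24 h on the log2 scale.

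The remaining motors were near the floor on most Ph24h arrays. Kif4, a chromosome-bound kinesin, rose by 1.30 on the log2 scale at 3 h (limma adjusted p = 0.000962) and was not well above background on any Ph24h array, at least 1.12-fold below control and at least 2.76-fold below Ph3h. Kif18a, a kinesin that dampens chromosome movement, gave -0.03 at 3 h and was also below background on the 3 Ph24h arrays, with a bound of at least 1.04-fold at 24 h (limma adjusted p = 0.0465). The call for Kif18a was lost in 8 of 9 fits that left out an array, all but that without Ph24h replicate 2. Kif11, the motor that separates spindle poles, was well above background on 1 Ph24h array, at -1.92 against -6.03 and -5.11 on the others, and passed at neither time (limma adjusted p = 0.612 and 0.475). Without that array, Ph24h replicate 2, Kif11 fell by 2.04 on the log2 scale at 24 h. Neither Ph24h array left was well above background, so the size of that fall is unmeasured.

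At anaphase onset all 4 genes were measured, of which 3 rose and 1 fell at 3 h, while at 24 h 3 rose and 1 fell. Cdc20, the activator of the anaphase promoting complex, had log2 levels of 0.53, 0.59 and 0.58 in control, 1.80, 2.08 and 1.84 in Ph3h and 2.57, 2.50 and 2.41 in Ph24h microglia, which ascended without overlap. Its log2 difference was 1.34 ± 0.09 at 3 h (limma adjusted p = 1.47e-05) and 1.93 ± 0.09 at 24 h (limma adjusted p = 1.85e-06). Cdc20 and Kif2c were the 2 genes higher in Ph24h than in Ph3h microglia, by 0.59 ± 0.09 (limma adjusted p = 0.00112) and 0.68 ± 0.15 (limma adjusted p = 0.00835).

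Ube2c, the ubiquitin conjugating enzyme that works with that complex, had log2 levels of 0.42, 0.28 and 0.44 in control, 2.26, 2.28 and 2.22 in Ph3h and 1.77, 1.73 and 1.53 in Ph24h microglia. Both fed groups lay above control, with differences of 1.87 ± 0.08 (limma adjusted p = 2e-06) and 1.30 ± 0.08 (limma adjusted p = 8.64e-06), and Ph24h lay below Ph3h by 0.57 on the log2 scale (limma adjusted p = 0.000837).

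Espl1 encodes separase, the protease that cuts cohesin, and Pttg1 encodes securin, its inhibitor. Espl1 had log2 levels of -0.97, -0.94 and -1.14 in control, -0.68, -0.49 and -0.33 in Ph3h and -0.52, 0.05 and -0.58 in Ph24h microglia. The fed groups were above control and overlapped each other, with differences of 0.52 ± 0.18 (limma adjusted p = 0.0417) and 0.66 ± 0.18 (limma adjusted p = 0.0132), the former lost without Ph3h replicate 2 or 3 or any 1 control array (0.43 to 0.56). With median scaling neither passed (limma adjusted p = 0.296 and 0.527). Pttg1 fell by 0.47 at 3 h (limma adjusted p = 0.00512) and by 0.72 at 24 h (limma adjusted p = 0.00051), with both probes lower.

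All 5 genes of the central spindle and cytokinesis were measured, of which 2 rose at 3 h and all 5 fell at 24 h. Anln, the anillin scaffold of the contractile ring, had log2 levels of 0.03, 0.00 and -0.01 in control, -0.41, -0.04 and -0.19 in Ph3h and -2.38, -2.77 and -2.98 in Ph24h microglia. It did not pass at 3 h (-0.22 ± 0.16, limma adjusted p = 0.287) and fell by 2.72 at 24 h (limma adjusted p = 7.03e-06), a 6.57-fold lower level.

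Prc1, which bundles the antiparallel microtubules of the central spindle, had log2 levels of 1.50, 1.46 and 1.46 in control, 1.60, 2.01 and 1.93 in Ph3h and -0.07, -0.23 and -0.14 in Ph24h microglia. It gave 0.37 ± 0.11 at 3 h (limma adjusted p = 0.022), lost with the replicate block (limma adjusted p = 0.0511) and without Ph3h replicate 2 or 3 or control replicate 2 or 3 (0.29 to 0.37), and -1.62 ± 0.11 at 24 h (limma adjusted p = 1.31e-05). Ect2, the exchange factor that activates RhoA at the cleavage site, was narrowly higher at 3 h (0.16, limma adjusted p = 0.0439, and -0.08 with median scaling), a call lost without Ph24h replicate 1 or any 1 control or Ph3h array (0.14 to 0.18), and fell by 1.46 at 24 h. With the mean over its probes, of which the second was dim, Ect2 gave -0.84 at 24 h and did not pass (limma adjusted p = 0.199), nor did it between Ph24h and Ph3h (-1.23, limma adjusted p = 0.0960). The midzone kinesins Kif20a and Kif23 fell by 0.98 and 0.62 at 24 h and gave 0.10 and 0.29 at 3 h without passing.

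**Figure D3:**
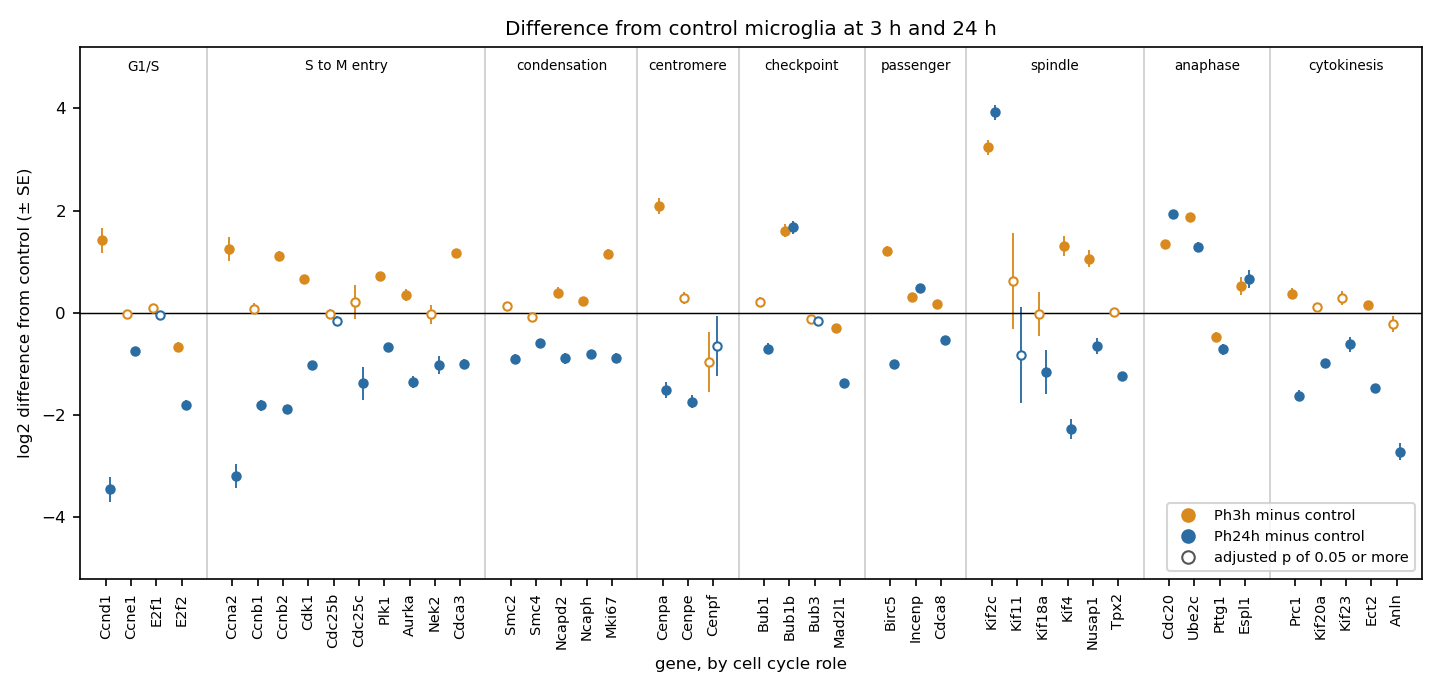
Log2 difference from control (y axis) of the 44 genes (x axis), grouped by role, at 3 h (orange) and 24 h (blue), with bars of 1 SE. Open symbols mark adjusted p of 0.05 or more, and genes that were dim at 24 h are drawn at their measured values. Most blue points lie below 0, with Kif2c highest at 3.92 and Ccnd1 at -3.45 and Ccna2 at -3.20 lowest.

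Probes of one gene did not always give one answer, which bears most on the genes called higher at 24 h. For Kif2c the brighter probe (mm9 chr4:116832904-116832963) gave the values above. The other (chr4:116832728-116832787) had log2 levels of -4.29, -3.78 and -4.21 in control, -3.25, -3.17 and -3.16 in Ph3h and -3.95, -5.55 and -4.07 in Ph24h microglia, where 0 of 3 arrays were well above background. It did not pass at 3 h (0.90 ± 0.40, limma adjusted p = 0.102 over probes) or 24 h (-0.43 ± 0.40, limma adjusted p = 0.388), and it was lower in Ph24h than in Ph3h (-1.33 ± 0.40, limma adjusted p = 0.0327), against the brighter probe. The mean over both probes gave -0.32 between Ph24h and Ph3h and did not pass (limma adjusted p = 0.257).

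The second probe of Ube2c lay at 0.78, 0.57 and 0.78 in control, 1.99, 2.16 and 1.97 in Ph3h and 0.76, 0.82 and 0.81 in Ph24h microglia. Both Ube2c probes rose at 3 h, but at 24 h the second overlapped with control (0.09 ± 0.08, limma adjusted p = 0.404). Bub1b, Cdc20 and Espl1 have 1 kept probe each, so no second probe could be compared. When a call was required of every kept probe of a gene, 20 rose and 2 fell at 3 h, and 4 rose and 29 fell at 24 h.

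Birc5 has 3 kept probes. A dimmer one (mm9 chr11:117711112-117711171) had log2 levels of -0.63, -0.60 and -0.73 in control, 1.20, 1.39 and 1.15 in Ph3h and -0.33, -0.38 and -0.23 in Ph24h microglia, and was higher at 24 h (0.34 ± 0.08, limma adjusted p = 0.0105). The third fell by 1.39 at 24 h on the log2 scale, as the brightest fell by 1.01, and all 3 rose at 3 h. For Cdk1, a dim probe (chr10:68799513-68799572), well above background on 1, 1 and 0 arrays of control, Ph3h and Ph24h, was called higher at 24 h against the brightest probe (1.14 ± 0.36, limma adjusted p = 0.0262). The mean over the Cdk1 probes was 0.06 at 24 h and did not pass (limma adjusted p = 0.818). Both probes of Mki67 rose at 3 h and fell at 24 h.

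**Figure D4:**
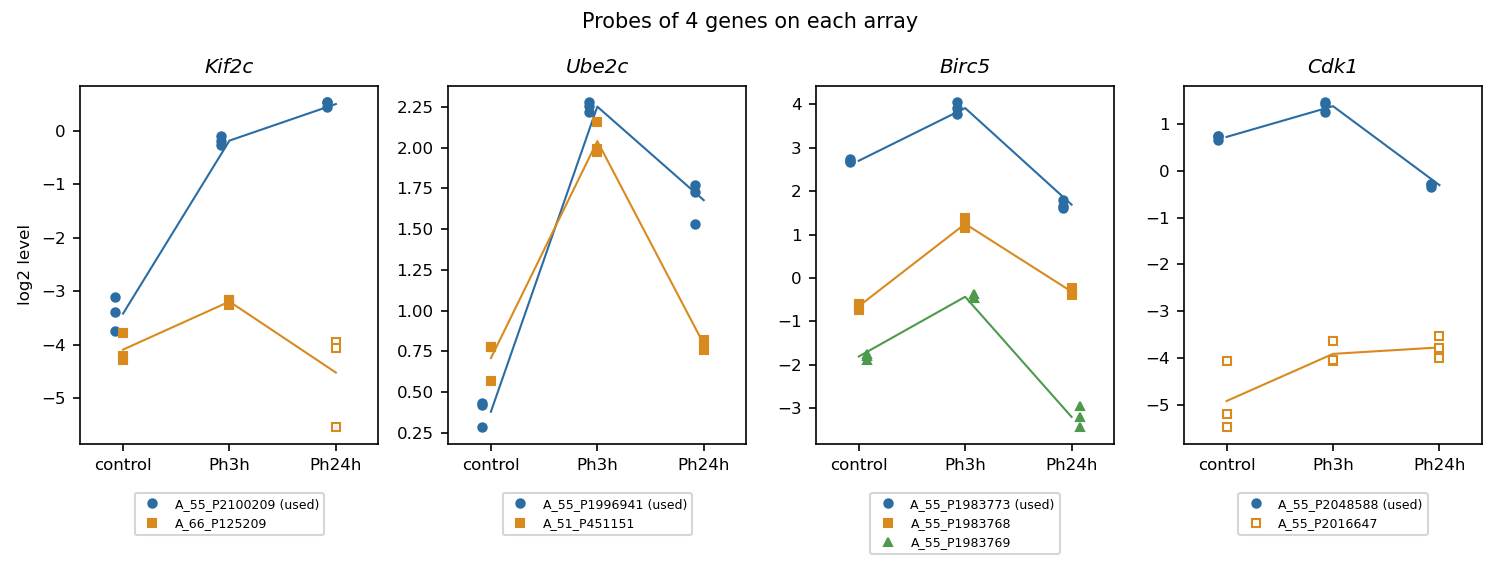
Log2 level (y axis) of each kept probe of Kif2c, Ube2c, Birc5 and Cdk1 on each array of control, Ph3h and Ph24h microglia. Points are arrays and lines join group means. Filled points mark groups in which the probe was well above background on all 3 arrays. At 24 h the brightest probe of Kif2c is far above its other probe, and 1 probe of Birc5 lies above its control level while the other 2 lie below.

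The other genes of the cell cycle were taken as 7 lists with 142 genes, of which 139 were measured. At 3 h, 55 rose and 32 fell, and at 24 h, 28 rose and 78 fell. These counts stand beside 27.9% higher and 25.9% lower over all genes tested at 3 h and 29.9% and 33.2% at 24 h. Several lists have shares near these, though the share called lower at 24 h is above 33.2% in each list. Of the CDK inhibitors and mitotic brakes, 9 of 15 rose and 2 fell at 3 h, while at 24 h 5 rose and 7 fell. Cdkn1c, the inhibitor p57, fell by 1.40 on the log2 scale at 3 h and by 3.71 at 24 h. Cdkn1b, the inhibitor p27, rose by 0.99 and 1.41, although its dimmer probe passed at neither time (-0.64 and -0.16). Btg1, an antiproliferative factor, rose by 0.56 and 1.60, and Cdkn2c, the inhibitor p18, gave -0.26 without passing and then fell by 1.35.

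Of 20 other G1 and S phase drivers, 8 rose and 8 fell at 3 h, and 5 rose and 10 fell at 24 h. Myc, a transcription factor of growth and cell cycle entry, fell by 3.13 on the log2 scale at 3 h and by 1.59 at 24 h, and Skp2, which targets p27 for destruction, fell by 1.59 and 1.36. Cks1b, a cofactor of CDKs, gave -0.05 without passing and fell by 0.91 at 24 h. Cdc7, a kinase that fires replication origins, was not well above background on any control or Ph3h array and was at least 3.45-fold higher at 24 h (limma adjusted p = 0.000285).

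Of 10 genes of pocket proteins, the MuvB core and mitotic transcription factors, 9 were measured, of which 4 rose and 3 fell at 3 h, while at 24 h 2 rose and 4 fell. Foxm1, the forkhead factor that turns on G2 and M phase genes, had log2 levels of -4.83, -4.53 and -4.57 in control, where 1 of 3 arrays was well above background, -0.59, -0.29 and -0.46 in Ph3h and -0.11, -0.03 and -0.15 in Ph24h microglia. Its 2 probes disagreed at 24 h. The brighter gave 4.20 at 3 h and 4.54 at 24 h, and the other gave 1.49 and then -0.75, called lower. The repressors Rbl1 and Rbl2 fell by 0.77 and 0.65 at 24 h, and Lin9 of the MuvB core by 0.74. The dimmer probes of Rbl1 (0.36) and Lin9 (-0.11) did not pass.

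Among other kinetochore and centromere genes, 29 of 31 were measured, of which 12 rose and 5 fell at 3 h, while at 24 h 3 rose and 19 fell, and a median log2 difference of 0.29 and -0.83. Nuf2, of the microtubule-binding NDC80 complex, gave 0.99 at 3 h without passing and fell by 2.45 at 24 h, and the centromere protein Cenpn fell by 1.58 at 24 h, each with 1 of 3 Ph24h arrays well above background. Cenpq was at least 5.42-fold lower at 24 h (limma adjusted p = 4.33e-06). Pmf1, of the MIS12 complex, rose by 2.02 and 2.92 by its brighter probe, and its other probe gave -0.31 at 24 h without passing.

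Of 32 other spindle, centrosome and kinesin genes, 16 rose and 4 fell at 3 h, and 9 rose and 15 fell at 24 h. Stmn1, a tubulin-sequestering protein, rose by 2.15 and 2.67 with both of its probes called, and Depdc1a by 1.78 and 2.95, with 1 of 3 control arrays well above background. Fam64a rose by 1.09 at 3 h and fell by 1.81 at 24 h, with 1 of 3 Ph24h arrays well above background. Spag5, a spindle protein, fell by 1.63 at 24 h.

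Of 17 cohesin, other condensin and separation genes, 4 rose and 4 fell at 3 h, and 3 rose and 9 fell at 24 h. Ncapg2, a condensin II subunit, fell by 0.66 at 3 h and fell by 1.82 at 24 h on the log2 scale, while Sgol1 and Cdca5, which protect cohesion, fell by 1.05 and 0.92 at 24 h. Stag1, a cohesin subunit, rose by 0.83 and 1.00 by its brighter probe, and its other probe gave -0.03 and -0.02.

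Of 17 genes of the anaphase promoting complex and its inhibitors, 2 rose and 6 fell at 3 h, and 1 rose and 14 fell at 24 h. Fbxo5, an inhibitor of the complex, fell by 1.51 at 24 h, and the subunit Cdc23 fell by 0.68 and 0.58. Anapc10 was at least 1.49-fold lower at 24 h (limma adjusted p = 0.00446). Anapc1, the scaffold subunit, fell by 0.21 and 0.61 by its brighter probe, but its other probe rose by 1.52 and 2.29. Cdc20 and Ube2c, which act with this complex, were higher at both times, Ube2c at 24 h by its brightest probe only.

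**Figure D5:**
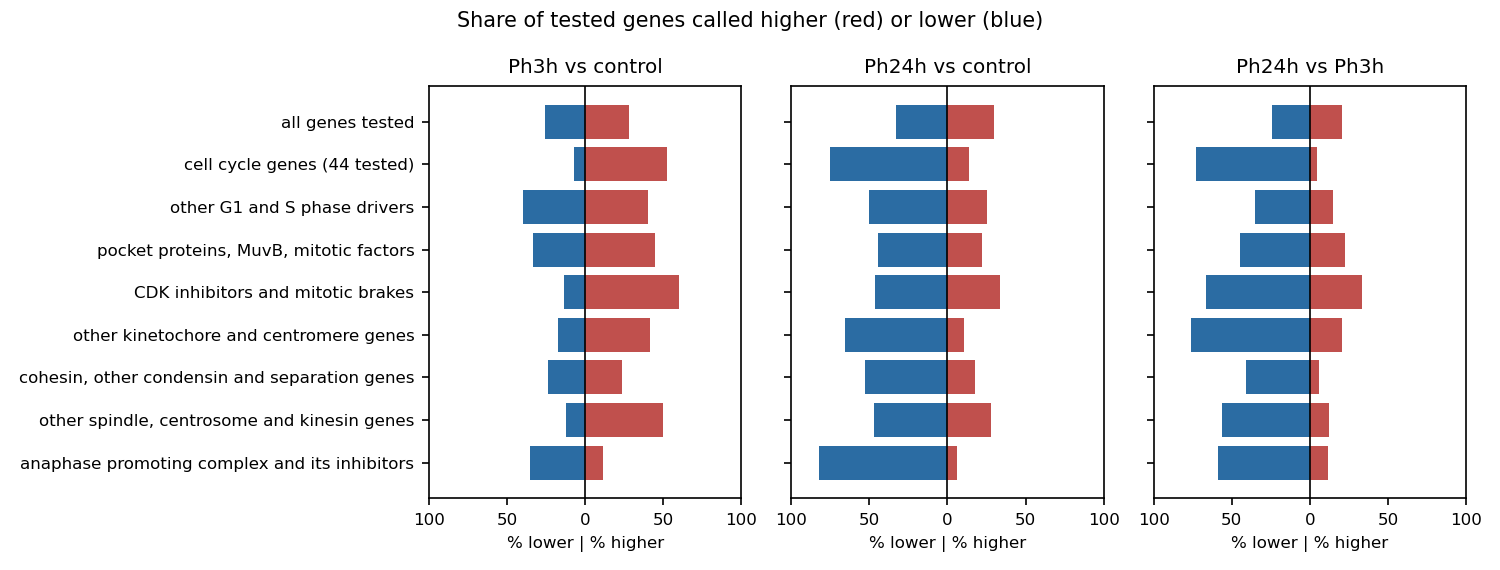
Share of tested genes called higher or lower (x axis, percent) in each of the 3 comparisons, for all 24101 genes, the 44 measured mitosis and cell cycle driver genes and the 7 lists. At 24 h against control the share called lower is 33.2% over all genes, with larger shares among the driver genes and in each of the 7 lists.

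A regression on time with a quadratic term, which with 3 times is the same fit as 3 group means, passed for 38 of the 44 genes by its overall F test. With R2 above 0.7 also required it passed for 37 (84.1%), and with R2 above 0.9 for 34 (77.3%). Over all genes tested the shares were 65.6% and 41.5%. Within slide 1, which held replicates 1 and 2 of each group, the median log2 difference of the 44 genes was 0.30 at 3 h and -0.88 at 24 h. Within slide 2, with 1 array per group and so no test, it was 0.28 and -0.92.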

How the data were processed

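RNA of 3 control, 3 Ph3h and 3 Ph24h microglial cultures was hybridized to one-color Agilent 60-mer arrays. The authors deposited 1 scanner file per array (Feature Extraction 10.7.3.1), with intensity values corrected for background and not scaled between arrays. The authors also deposited log2 values from GeneSpring GX, centered per probe and filtered for probes not present in any sample, which served as an alternative. The sources used here do not give how those were scaled.

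Intensities were converted to log2 without flagged spots, averaged per probe, and reduced by the 75th percentile of the array. Another 56 probes had every spot flagged on 1 or more arrays and were dropped, and 34381 probes well above background on at least 1 array were kept. The brightest kept probe stood for each of 24101 genes. Group means of all 9 arrays were compared with limma 3.58.1 in R 4.3.3, with Benjamini-Hochberg adjustment and a threshold of 0.05. The number of arrays limits the precision, and the code was tested on simulated data. Probe positions are those of the array files (mm9).

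The 49 genes and the 7 lists were chosen with earlier results of these data known, so no p-value is given for a list. Values on every array are given for all genes of G1 phase, the 2 genes of each other role with the largest difference at 24 h (dim genes taken at their bounds), Mki67, Cdk1, Ccnb1 and those of the 49 genes whose probes were called in opposite directions. Of each list up to 4 called genes are named. Alternatives were quantile normalization, median scaling, normexp, the table of log2 values, no filter and a stricter one, the mean over probes, slide and replicate blocks, a trend in the variance, fits of only the 2 groups compared, a shorter promoter stretch, slide 1 alone and leaving out each array. The requirement of a call by every probe was chosen after seeing the data.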

Additional observations from a re-analysis of the deposited data

Results flagged for a closer look

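Of the 44 genes, 17 rose past the threshold against control at 3 h and fell past it at 24 h (limma adjusted p below 0.05). Over all genes tested, 3.81% had these 2 calls. All 17 were also called lower in Ph24h than in Ph3h (limma adjusted p below 0.05). After opposite calls from the same fit that was nearly fixed in advance, so it is not separate support. Both differences use the same 3 control arrays, which cancel in the change. The change on the log2 scale was -4.87 for Ccnd1, -4.44 for Ccna2, -3.60 for Cenpa and -3.57 for Kif4, the last a measured value of a probe that was not well above background at 24 h and whose bound is -1.46. It was -3.01 for Ccnb2, -2.22 for Birc5, -2.16 for Cdca3, -2.04 for Mki67 and -1.99 for Prc1. It was -1.71 for Nusap1, -1.71 for Aurka, -1.69 for Cdk1, -1.62 for Ect2, -1.41 for Plk1, -1.29 for Ncapd2, -1.04 for Ncaph and -0.70 for Cdca8. Ccna2 was well above background on 1 of 3 Ph24h arrays, and its change ran from -4.705 to -2.36 over the alternatives. For Ncaph, Cdca8 and Ect2 the difference at 3 h reversed with median scaling. The 3 h calls of Aurka, Prc1 and Ncapd2 were lost with median scaling (0.11, 0.13 and 0.15) and on slide 1 alone. At 24 h, 1 probe of Birc5 was called higher (0.34). The dimmer probe of Cdca8 was called higher at 3 h (0.51) and did not pass at 24 h (-0.28). The mean over probes gave 0.06 for Cdk1 at 24 h, and for Ect2 it did not pass. Kif2c, Cdc20, Bub1b, Incenp, Ube2c and Espl1, called higher at both times by the probe used, did not show this pattern. Over all genes tested, 19.5% were called higher at both times. The other probe of Kif2c was lower in Ph24h than in Ph3h microglia (-1.33), and that of Ube2c was not called higher at 24 h (0.09). With median scaling Incenp and Espl1 passed at neither time. Groups of 3 arrays were too small to look for single outlying arrays by a test.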

How the results depend on the processing

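Of 2769 values recomputed for 132 results, 2586 kept their direction and side of the threshold, 82 lost a call, 45 gained one and 56 reversed. The number of genes that rose at 3 h was 23, but 15 with median scaling or with slide 1 alone, and 16 to 23 with single arrays left out. The number that fell at 3 h was 3, but 5 with quantile normalization, normexp or the authors' table and 6 with median scaling (3 to 4 with single arrays left out). The median log2 difference at 3 h was 0.048 with median scaling and 0.16 with normexp (0.25 to 0.31 with single arrays left out). At 24 h the median was -1.01 with quantile normalization, -1.40 with median scaling, -0.67 with normexp, -1.03 with the authors' table and -0.83 with the mean over probes (-0.97 to -0.85 with single arrays left out). With single arrays left out, 6 genes rose and 32 to 35 fell at 24 h. Between Ph24h and Ph3h the median was -1.39 with median scaling, -0.89 with normexp and -1.25 with the authors' table (-1.20 to -1.09 with single arrays left out). With single arrays left out 2 to 3 genes rose and 32 to 34 fell there, and 1 rose with median scaling or with every probe called.

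At 3 h, median scaling reversed E2f1 (-0.14), Ccnb1 (-0.16), Cdc25c (-0.034), Smc2 (-0.12), Ncaph (-0.0050), Bub1 (-0.035), Cdca8 (-0.076), Tpx2 (-0.23), Kif20a (-0.14) and Ect2 (-0.084), which follows from its shift of all differences. Others at 3 h were Cdc25c (-0.0085 with quantile normalization, -0.010 in the table), Tpx2 (-0.00015 with quantile normalization, -0.032 with normexp, -0.00022 in the table, -0.0051 with the mean over probes, -0.016 on slide 1), Cdc25b (0.012 with normexp), Ccne1 (0.12 with the mean over probes, 0.016 on slide 1), Mad2l1 (0.023 with the mean over probes), Nek2 (0.062) and Kif18a (0.11), both on slide 1. At 24 h, E2f1 gave 0.053 with quantile normalization, 0.050 in the table and 0.038 with normexp, Incenp -0.025 with median scaling and Cdk1 0.058 with the mean over probes. Between Ph24h and Ph3h, Cenpf gave -0.0062, -0.019 and -0.0065 and Bub3 0.10, 0.18 and 0.10 with quantile normalization, normexp and the table. Median scaling gave -0.20 for Bub1b, -0.081 for Incenp and -0.12 for Espl1, the mean over probes -0.32 for Kif2c and 0.049 for Pttg1, and slide 1 alone 0.0079 for Bub3. Apart from values set by construction, the cause was not tested.

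With single arrays left out, values that crossed 0 ranged at 3 h from -0.024 to 0.17 for Ccnb1, -0.064 to 0.036 for Ccne1, -0.068 to 0.050 for Cdc25b, -0.13 to 0.17 for Kif18a, -0.22 to 0.082 for Nek2 and -0.028 to 0.052 for Tpx2. They ranged from -2.04 to 0.016 for Kif11 at 24 h and, between Ph24h and Ph3h, from -0.063 to 0.17 for Bub1b, -0.10 to 0.011 for Bub3 and -0.053 to 0.26 for Espl1. Same-numbered arrays did not deviate together over the kept probes (correlations from -0.05 to 0.04). This cannot show whether arrays with the same number came from the same experiment. With the replicate block 20 rose and 3 fell at 3 h, with the calls of Cdca8, Ect2 and Prc1 lost, and 6 rose and 33 fell at 24 h. The regression passed for 39 genes with median scaling and 40 without the filter. Signal over background limits Cdc25c, Kif18a, Kif4, Cenpf, Kif11 and Ccna2, which were dim on some or all Ph24h arrays.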
